A study of Mus musculus with 22 samples.

Results

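The bone morphogenetic protein (BMP) genes described here are 10 genes of one signalling route: the ligands Bmp2, Bmp4, Bmp5 and Bmp7, the type I receptors Bmpr1a and Bmpr1b, the secreted antagonist Grem1, and the target genes Id1, Id2 and Id3. They were found on the array by gene name or by the transcript identifier of the probe, which gave 16 of the 41174 non-control probes and 10 of the 18633 genes and unnamed probes tested. All 10 genes passed the filter on dim probes through at least 1 probe, and 14 of the 16 probes did. The rule that finds them uses names and no measured value.

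The samples were forelimbs of strain 129 mouse embryos at 13.5 days, 9 from wild-type (Chsy-1 wt) and 13 from knockout (Chsy-1 ko) embryos. Chsy1 encodes chondroitin sulfate synthase 1, which extends the sugar chains of chondroitin sulfate proteoglycans. Each Cy5-labelled sample was hybridised together with a Cy3-labelled universal mouse reference RNA, so each value below is a log2 ratio of forelimb to reference, and a difference is knockout minus wild type on that scale. Neither the number of embryos behind a sample nor the design of the knockout allele is stated in the labels, and p-values here measure only the spread between the samples. The tissue is a whole limb of mixed cell types, in which fewer cells of a type and less RNA per cell cannot be told apart. A ratio to the reference ranks nothing between genes, because each probe has its own reference signal.

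BMP ligands are secreted dimers that bind a pair of type I and type II serine/threonine kinase receptors, which phosphorylate Smad1, Smad5 and Smad9. These Smads enter the nucleus with Smad4 and turn on target genes, of which the Id genes, encoding inhibitors of basic helix-loop-helix factors, are among the most direct. In the limb bud BMP signals take part in patterning, in the death of interdigital cells and in the condensation and growth of cartilage, and antagonists such as Gremlin 1 limit their reach.

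Promoter windows are shown for Id2, the gene with the smallest p-value, for Bmpr1a and Grem1, whose values opposed each other across arrays, and for Id3, the Id target that has a window without the GC-rich element. Sequences are from RefSeq on GRCm38.p6, each window covering 300 bases around the start of the gene and mostly upstream of it, and 7 of the 10 genes matched an entry. Capitals mark 2 elements that Smad proteins are known to bind, GGCGCC, which reads the same on both strands, and GTCT, searched on both strands as GTCT or AGAC. These elements cannot overlap each other.
Id2 (chr12:25096043-25096342, minus strand): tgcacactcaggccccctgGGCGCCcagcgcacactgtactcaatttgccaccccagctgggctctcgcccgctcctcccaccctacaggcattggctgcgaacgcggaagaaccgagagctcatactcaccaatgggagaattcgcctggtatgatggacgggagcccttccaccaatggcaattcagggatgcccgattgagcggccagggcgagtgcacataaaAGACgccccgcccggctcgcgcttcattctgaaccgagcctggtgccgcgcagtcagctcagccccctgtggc
Bmpr1a (chr14:34502497-34502796, minus strand): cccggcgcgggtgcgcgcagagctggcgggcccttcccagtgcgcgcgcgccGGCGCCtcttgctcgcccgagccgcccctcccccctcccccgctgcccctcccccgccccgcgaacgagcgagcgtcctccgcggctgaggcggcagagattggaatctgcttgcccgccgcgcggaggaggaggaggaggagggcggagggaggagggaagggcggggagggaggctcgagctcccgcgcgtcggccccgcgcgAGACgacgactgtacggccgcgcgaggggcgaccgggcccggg
Grem1 (chr2:113758599-113758898, minus strand): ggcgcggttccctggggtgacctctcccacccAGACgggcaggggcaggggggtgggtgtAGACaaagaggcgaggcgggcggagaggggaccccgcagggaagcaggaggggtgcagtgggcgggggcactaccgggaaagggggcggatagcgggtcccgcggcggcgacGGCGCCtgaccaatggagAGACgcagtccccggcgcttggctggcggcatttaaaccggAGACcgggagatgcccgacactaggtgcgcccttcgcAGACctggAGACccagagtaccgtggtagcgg
Id3 (chr4:136143572-136143871, plus strand): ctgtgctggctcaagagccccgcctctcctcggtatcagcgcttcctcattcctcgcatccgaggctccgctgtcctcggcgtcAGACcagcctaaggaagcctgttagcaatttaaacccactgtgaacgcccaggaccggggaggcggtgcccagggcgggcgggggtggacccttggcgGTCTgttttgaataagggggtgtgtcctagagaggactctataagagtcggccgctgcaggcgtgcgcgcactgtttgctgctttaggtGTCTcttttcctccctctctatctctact
The GC-rich element GGCGCC was present in the windows of Bmpr1a, Grem1 and Id2, that is in 3 of the 7 matched genes. These genes have 9 windows, of which these 3 held it, while 11.9% of 32851 promoter windows of the same length did. The 3 windows were 63.3% to 79.3% G or C, and the share among windows of like content was not counted. The short element GTCT was present in every window of the 7 genes, and 88.0% of all windows held it, with a median of 2 matches. The Grem1 window had 6 such matches, the Id3 window 3, and the windows of Id2 and Bmpr1a 1 each. A match describes the letters of the window and not a bound site.

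Chsy1 itself separated the genotypes. The 9 wild-type arrays had a log2 ratio of 1.73 ± 0.28 (SD, n = 9) and the 13 knockout arrays one of -4.38 ± 1.39 (SD, n = 13), a difference of -6.11 (SE 0.44, limma adjusted p = 1.27e-08). The library labelled knockout 1 had a ratio of 0.15, while the other knockout libraries lay at or below -4.05. Wild-type 1 stood apart in another way: it had the lowest mean correlation with the other arrays, 0.912, followed by knockout 12 with 0.937. Wild-type 1 was also the lowest of the 22 arrays for the mean of the 10 BMP genes, at -0.42 from the mean of all arrays, against -0.08 to 0.09 in the other wild-type arrays and -0.28 to 0.18 in the knockout arrays. Wild-type 1 was lowest for 8 of 9 marker lists too, among them the 9 limb mesenchyme markers (-0.83), the 9 cartilage markers (-1.01) and the 10 endothelial markers (-0.97). Between genotypes no gene of these lists was called, and the median difference ran from -0.22 for the 9 cartilage markers to 0.20 for Tbx5. Above 0 were 2 of 9 cartilage, 1 of 10 endothelial, 1 of 9 skeletal muscle and 2 of 10 surface ectoderm markers. So were 6 of 9 limb mesenchyme, 3 of 6 neuronal and 4 of 7 erythroid markers, against 8695 of all 18633 features. These marker values include wild-type 1. The part of cell makeup in the BMP values was not tested. The tissue label was checked on limb identity factors. The forelimb factor Tbx5 had a ratio of 2.20 in wild type and 2.41 in knockout at the probe used, and a second Tbx5 probe was well above background on 4 of 22 arrays. The hindlimb factor Pitx1 was well above background on all 22 arrays, with a ratio of 5.64 in wild type and 5.45 in knockout and a median Cy5 signal of 69790 units. Both probes of Tbx4, another hindlimb factor, were also well above background on all 22 arrays, so these markers alone do not set the samples apart as forelimb. The 6 slides each held both genotypes, but slide position 1 held only wild-type arrays, positions 3 and 4 only knockout arrays, and position 2 held 3 of each. Results are therefore given with and without wild-type 1, within slides and within position 2.

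None of the 10 BMP genes passed the test between genotypes. With limma, 0 of 10 had an adjusted p below 0.05, against 0.0215% of all 18633 features tested, and 1 of 10, Id2, had an unadjusted p below 0.05, against 5.33% of all features. The differences ran from -0.13 for Grem1 to 0.20 for Bmpr1b. Of them 7 were above 0 and 3 below, against 8695 and 9938 over all features. Their median was 0.07, against -0.01 over all features. With these settings the 95% intervals reached up to 1.47-fold, for Bmpr1b, and down to 0.755-fold, for Bmp2. Other settings gave wider intervals on the log2 scale: -1.18 to 0.63 for Bmp2 with slide position as a block, -0.55 to 0.99 for Bmpr1b with an offset of 0 in the background correction, and -0.56 to 1.05 for Bmp5 with the scanner software's ratio. The 2 genotypes overlapped for every gene. Without wild-type 1 the median of the 10 differences was 0.02, with 6 above 0 and 4 below. Over all features 8128 were then above 0 and 10505 below.

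**Figure D1:**
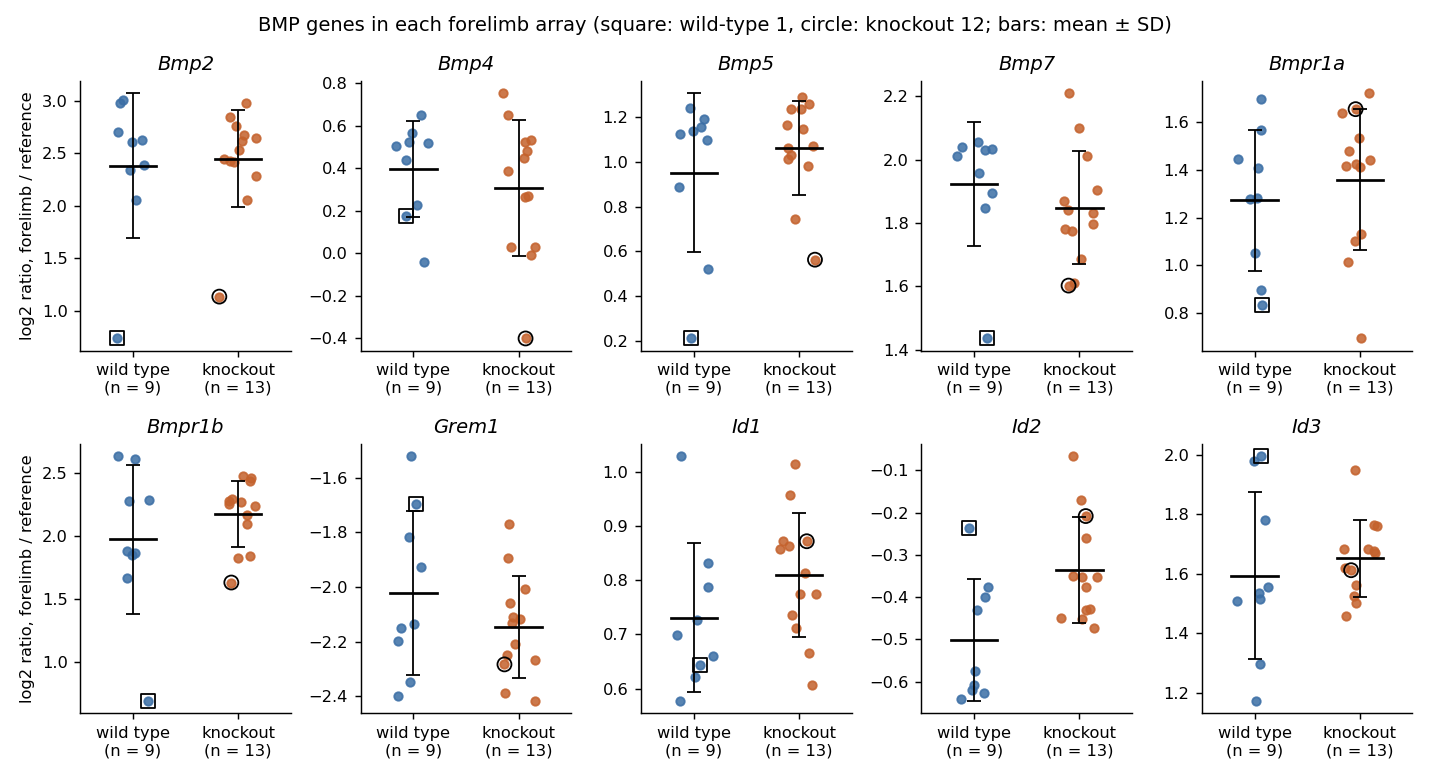
The log2 ratio of forelimb over reference for each of the 10 BMP genes, one point per array, wild type (n = 9) beside knockout (n = 13), with bars for the mean ± SD. Wild-type 1 (square) is the lowest wild-type array for Bmp2, Bmp5, Bmp7, Bmpr1a and Bmpr1b and the highest for Id2 and Id3, and knockout 12 (circle) is the lowest knockout array for all 4 ligands and for Bmpr1b; the vertical axes differ between panels.

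Bmp2, a ligand of limb mesenchyme and cartilage, was measured by 1 probe spotted 10 times (chr2:133252686-133252745 on mm8, the build of the files' probe positions). Wild-type ratios ran from 0.74 through a median of 2.61 to 3.01, and knockout ratios from 1.14 through 2.53 to 2.98. The knockout range lay inside the wild-type range, and the lowest arrays were wild-type 1 and knockout 12. The difference was 0.06 (SE 0.23, 95% interval -0.41 to 0.53, limma adjusted p = 0.987). It was -0.14 without wild-type 1 and -0.28 within position 2, and it was below 0 in 11 of the 19 settings tried other than the omission of 1 array, so no direction is read from it. The 10 spots of an array differed little, with a median SD of 0.087 within arrays against 0.69 between wild-type arrays and 0.46 between knockout arrays. Scatter between spots was thus smaller than the spread between arrays. The Cy3 reference signal was well above background on 0 of 22 arrays, so the Bmp2 ratio rests on Cy5 alone, where wild-type signals ran from 299 to 1127 units and knockout signals from 425 to 1038.

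Bmp4, a ligand expressed in limb mesenchyme and in the ectodermal ridge, was also spotted 10 times (chr14:45306004-45306063, mm8). Wild-type ratios were lowest at -0.04, with a median of 0.50 and a highest value of 0.65, and knockout ratios ran from -0.40 through 0.39 to 0.75. The knockout arrays reached both higher and lower than the wild-type arrays, with 9 of 13 below the wild-type median. The difference was -0.09 (SE 0.12, 95% interval -0.33 to 0.15, limma adjusted p = 0.962). It was -0.12 without wild-type 1, -0.21 within position 2 and -0.41 within position 2 without knockout 1. Without knockout 12, the lowest array, it was -0.03. Both channels were well above background on all 22 arrays, and the median SD between spots of an array was 0.030.

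Bmp5, the ligand altered in the short ear mouse, had 3 probes, of which 1 (chr9:75684546-75684605, mm8) was well above background in Cy5 on all 22 arrays. The other 2 were not well above background on any array and were not tested. Wild-type ratios of the measured probe were 0.21 at the lowest, 1.13 at the median and 1.24 at the highest, and knockout ratios 0.56, 1.07 and 1.29. The medians of the genotypes lay close together, and wild-type 1 was far below the wild-type median. The difference was 0.11 (SE 0.11, 95% interval -0.13 to 0.35, limma adjusted p = 0.945), 0.02 without wild-type 1 and -0.03 within position 2. The reference was well above background on only 4 of 22 arrays, and Cy5 signals lay between 126 and 262 units, close enough to background that the offset of 50 compresses the ratio.

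Bmp7, a ligand of mesenchyme, ectoderm and forming cartilage, had 2 neighbouring probes. The one used (chr2:172512641-172512700, mm8) ranged over 1.44, 2.01 and 2.06 as lowest, median and highest wild-type ratio, and over 1.60, 1.83 and 2.21 in knockout. In knockout, 10 of 13 values were below the median of wild type and 3 above it. The difference was -0.08 (SE 0.08, 95% interval -0.24 to 0.09, limma adjusted p = 0.950). Without wild-type 1 it was -0.14 (95% interval -0.28 to 0.01, limma adjusted p = 0.912), and it was below 0 on 5 of 6 slides. Within position 2 it was -0.19, and -0.11 there without knockout 1. The second probe, spotted 10 times, gave -0.05 (95% interval -0.23 to 0.14), and the genotype difference between the probes was 0.03 (exact two-sided permutation test, p = 0.682, adjusted p = 0.918 over 4 genes with paired probes).

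Bmpr1a, the widely expressed type I receptor for Bmp2 and Bmp4, had 2 probes well above background in both channels. The brighter one (chr14:33240245-33240304, mm8) gave wild-type ratios from 0.83 through 1.28 to 1.70 and knockout ratios from 0.69 through 1.43 to 1.72. The ranges nearly coincided, with knockout 5 the lowest of all arrays and 9 of 13 knockout arrays above the wild-type median. The difference was 0.09 (SE 0.12, 95% interval -0.17 to 0.34, limma adjusted p = 0.966), and the second probe gave 0.08 (95% interval -0.10 to 0.26). The value was 0.03 without wild-type 1, -0.02 within position 2 and 0.11 within position 2 without knockout 1.

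Bmpr1b, the type I receptor that marks prechondrogenic condensations, had the highest difference of the 10 genes. Its probe (chr3:141775117-141775176, mm8) ran from 0.69 through 1.88 to 2.63 in wild type and from 1.63 through 2.25 to 2.47 in knockout. All knockout arrays lay inside the wild-type range, and 10 of 13 lay above the wild-type median. The difference was 0.20 (SE 0.17, 95% interval -0.16 to 0.56, limma adjusted p = 0.938). Without wild-type 1 it was 0.04 (95% interval -0.23 to 0.31). Within position 2 it was 0.01, and 0.10 there without knockout 1. As for Bmp2, the reference was well above background on 0 of 22 arrays, and the Cy5 signals of 198 to 584 units in wild type and 294 to 713 in knockout carry the ratio.

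Grem1 encodes Gremlin 1, the antagonist that holds BMP activity down in the distal limb mesenchyme. Its probe (chr2:113549909-113549968, mm8) was dimmer in the forelimb than in the reference on all 22 arrays, with wild-type ratios of -2.40, -2.14 and -1.52 and knockout ratios of -2.42, -2.13 and -1.77 at the lowest, median and highest array. The medians differed by 0.01 or less and only wild-type arrays reached above -1.77. The difference of means was -0.13 (SE 0.10, 95% interval -0.33 to 0.08, limma adjusted p = 0.932), -0.08 without wild-type 1, -0.06 without wild-type 3, the highest array, and 0.08 within position 2.

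Among the targets, Id1 was measured by 2 overlapping probes, the first at chr2:152428741-152428800 (mm8). Wild-type ratios ran from 0.58 through 0.70 to 1.03 and knockout ratios from 0.61 through 0.81 to 1.02. The knockout range lay inside the wild-type range, and 11 of 13 knockout arrays lay above the wild-type median. The difference was 0.08 (SE 0.06, 95% interval -0.04 to 0.20, limma adjusted p = 0.932), and 0.07 at the second probe, which followed the first closely across arrays (Spearman's rho 0.92, a description of 2 overlapping probes). The difference was 0.07 without wild-type 1 and -0.08 within position 2.

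Id2 came nearest to a difference between genotypes. The probe used (chr12:25683119-25683178, mm8) gave wild-type ratios of -0.64 at the lowest, -0.58 at the median and -0.24 at the highest, and knockout ratios of -0.47, -0.35 and -0.07. All 13 knockout arrays lay above the wild-type median and 3 above every wild-type array, while wild-type 1 was the highest wild-type array. The difference was 0.17 (SE 0.06, 95% interval 0.04 to 0.29), or 1.12-fold (95% interval 1.03 to 1.22), with an unadjusted limma p of 0.0116 and an adjusted p of 0.917. By unadjusted p it ranked 224 of the 18633 features, so it did not pass the test. The difference was above 0 on all 6 slides, from 0.11 to 0.33, was 0.09 within position 2, and was 0.20 without wild-type 1 (limma adjusted p = 0.831). Leaving out knockout 1, whose Chsy1 ratio stood apart, left it at 0.17.

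The second Id2 probe did not show this difference. Its positions span 348 bases on mm8 (chr12:25684398-25684745), and it gave wild-type ratios from -0.67 through -0.48 to 0.32 and knockout ratios from -0.75 through -0.40 to 0.32. The genotypes covered nearly the same range, and the difference was -0.05 (95% interval -0.32 to 0.23). Within arrays, the first probe minus the second averaged -0.17 ± 0.30 (SD, n = 9) for wild type, whereas knockout arrays averaged 0.04 ± 0.30 (SD, n = 13). This gap of 0.21 between genotypes did not pass an exact two-sided permutation test (p = 0.14, adjusted p = 0.56 over the 4 genes with paired probes), and it was 0.12 without wild-type 3 and 0.04 within position 2. Both probes were well above background on all 22 arrays in both channels, and their ratios had a Spearman's rho of 0.41 across arrays, the lowest of the 4 probe pairs, against 0.66 for Bmp7, 0.74 for Bmpr1a and 0.92 for Id1. With the mean of the probes in place of the brighter one, the Id2 difference was 0.06.

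Id3 was measured by 1 probe with Cy5 signals from 12100 to 31350 units (chr4:135416236-135416410, mm8). Wild-type ratios ran from 1.17 through 1.54 to 2.00 and knockout ratios from 1.46 through 1.67 to 1.95. The knockout arrays lay inside the wild-type range, and 10 of 13 were above the wild-type median. The difference was 0.06 (SE 0.09, 95% interval -0.12 to 0.24, limma adjusted p = 0.971), 0.11 without wild-type 1 and 0.13 within position 2. Without wild-type 6, the lowest array, it was 0.0058.

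**Figure D2:**
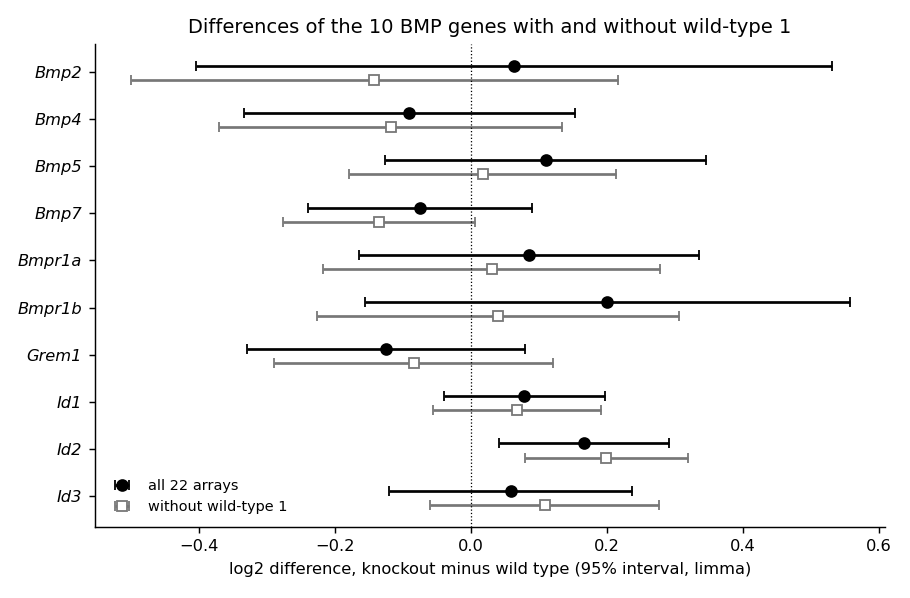
The log2 difference, knockout minus wild type, of each BMP gene with its 95% interval from limma, from all 22 arrays (filled circles) and without wild-type 1 (open squares). The Id2 interval, 0.04 to 0.29, is the one that does not reach 0 with all arrays, and the Bmp2 and Bmpr1b values move most when wild-type 1 is left out, from 0.06 to -0.14 and from 0.20 to 0.04.

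The difference between genotypes varied from slide to slide. On slide 1, which held wild-type 1, the difference was 1.19 for Bmp2, 0.93 for Bmpr1b and 0.57 for Bmp5, and without wild-type 1 it was 0.26, 0.35 and 0.11. On slide 3 the Bmp2 difference was -0.92 and that of Bmp4 was -0.71. Id2 was the gene whose difference had the same sign on all 6 slides. Within position 2, 4 of the 10 differences were above 0 and 6 below, near the split of all features, 7853 above and 10773 below. Each slide held 1 or 2 wild-type arrays and 2 or 3 knockout arrays, and values within a single slide are given as a description. With slide as a block over all arrays, the Id2 difference was 0.16 (95% interval 0.03 to 0.30, unadjusted limma p = 0.0188, adjusted p = 0.951).

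**Figure D3:**
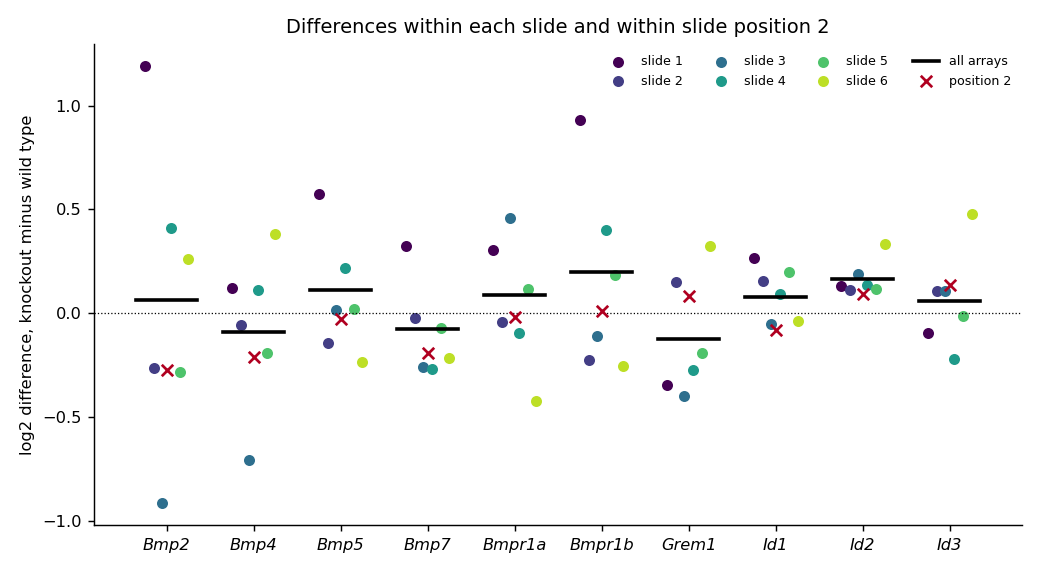
The log2 difference, knockout minus wild type, of each BMP gene within each of the 6 slides (coloured points), within slide position 2 (crosses) and over all arrays (bars). The points of Bmp2 spread from -0.92 to 1.19, while those of Id2 lie between 0.11 and 0.33.

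Across the 22 arrays, with each genotype centred on its own mean, some of the BMP genes varied together. Of 45 pairs, 9 had a Spearman's rho with a permutation p (100000 resamples within genotype, two-sided) below 0.05 after adjustment over the pairs, 5 with a positive and 4 with a negative rho. The arrays share the reference RNA and the normalisation, and both genotypes enter each value. The share of such pairs among other genes was not counted, so 9 of 45 is not read as particular to the BMP genes. Each gene entered by the probe used above, and second probes of Bmp7, Bmpr1a, Id1 and Id2 took no part. Within arrays, the second Bmp7 probe minus the one used ran from -0.32 to 0.26 in wild type and from -0.23 to 0.28 in knockout. A relation of Bmp7 is therefore read for the probe used and not for the gene.

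Among the ligands, Bmp2 and Bmp4 had a Spearman's rho of 0.66 (permutation p = 0.00114, adjusted p = 0.0158) and a Pearson's r of 0.65 (permutation p = 0.00106, adjusted p = 0.0104). Without wild-type 1 and knockout 12, the arrays farthest from the Bmp2 median, r was 0.55 and rho 0.58. With all arrays, rho was 0.68 among wild-type and 0.69 among knockout arrays. It was 0.66 within position 1 and 0.31 within positions 2 and 3, which hold 6 arrays each (position 4, with 4 arrays, was left out). Bmp5 and Bmp7 had a rho of 0.64 (permutation p = 0.00136, adjusted p = 0.0158) and an r of 0.68 (permutation p = 0.00112, adjusted p = 0.0104), and without wild-type 1 and knockout 12 the r was 0.35 and the rho 0.53. Within positions 1, 2 and 3 the rho was 0.77, 0.43 and 0.49. This relation is that of the Bmp7 probe used, and was not computed with the second Bmp7 probe. Bmp2 and Bmp5 had a rho of 0.57 (permutation p = 0.00924, adjusted p = 0.0462) and an r of 0.77 (permutation p = 0.00116, adjusted p = 0.0104), and without the same 2 arrays the r was 0.35 and the rho 0.43. Its rho was 0.54, 0.43 and 0.09 within the 3 positions. In these last 2 pairs Pearson's r depended on wild-type 1 and knockout 12 more than rho did.

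Bmpr1a varied with Bmp7, at a rho of 0.62 (permutation p = 0.0028, adjusted p = 0.021) and an r of 0.57 (permutation p = 0.00609, adjusted p = 0.0273), which was 0.50 without wild-type 1 and knockout 4, and its rho within positions 1, 2 and 3 was 0.77, 0.77 and 0.43. It also varied with Bmp5, at a rho of 0.58 (permutation p = 0.00722, adjusted p = 0.0406) and an r of 0.54 (permutation p = 0.0108, adjusted p = 0.0304), which was 0.70 without wild-type 1 and knockout 12. Within position 2 the rho of Bmpr1a with Bmp5 was -0.14, so this relation did not hold there. Within positions 1 and 3 that rho was 1.00 and 0.94. The relation of Bmpr1a with Bmp7 is that of the Bmp7 probe used, and was not computed with the second Bmp7 probe.

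Grem1 ran against Bmpr1a, at a rho of -0.69 (permutation p = 0.00091, adjusted p = 0.0158) and an r of -0.71 (permutation p = 0.00026, adjusted p = 0.00585), which was -0.60 without knockout 5 and wild-type 1. Within positions 1, 2 and 3 the rho was -0.94, -0.37 and -0.83. Grem1 also ran against Bmp5, at a rho of -0.67 (permutation p = 0.00175, adjusted p = 0.0158) and an r of -0.65 (permutation p = 0.00314, adjusted p = 0.0177), which was -0.82 without wild-type 1 and knockout 12, and the rho was -0.94, -0.60 and -0.94 within positions 1, 2 and 3. The signs held in each position, and the rho with Bmp5 was -0.97 in wild type and -0.31 in knockout, a gap that was not tested.

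Of the targets, Id3 ran against Bmp5, at a rho of -0.67 (permutation p = 0.00155, adjusted p = 0.0158) and an r of -0.63 (permutation p = 0.00728, adjusted p = 0.0273), which was -0.62 without wild-type 1 and knockout 12. Within positions 1, 2 and 3 its rho was -0.89, -0.49 and -0.43. Id2 ran against Bmp7, at a rho of -0.57 (permutation p = 0.00609, adjusted p = 0.0392) and an r of -0.62 (permutation p = 0.00253, adjusted p = 0.0163), which was -0.48 without wild-type 1 and knockout 4, and the rho was -0.49, -0.43 and -0.31 within positions 1, 2 and 3. The relation of Id2 with Bmp7 is that of the probes used, and was not computed with the second probe of either gene. Across arrays the 2 probes of Bmp7 had a rho of 0.66, and those of Id2 one of 0.41. By rho, the 9 relations include no pair of 2 Id genes. Id1 and Id3 had a rho of -0.48 (permutation p = 0.0293, adjusted p = 0.0939). Their Pearson's r was -0.56 (permutation p = 0.00967, adjusted p = 0.0304).

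Bmpr1a and Grem1 also followed the main axis of variation of all genes. The first principal component of the arrays, centred within genotype, held 23.5% of the variance, and its Spearman's rho was -0.86 with Bmpr1a (permutation p = 1e-05, the smallest these permutations can give, adjusted p = 0.0003 over 30 relations) and 0.71 with Grem1 (permutation p = 0.00053, adjusted p = 0.00795). Pearson's r was -0.93 (permutation p = 1e-05, adjusted p = 0.0003) and 0.76 (permutation p = 0.00014, adjusted p = 0.0021), and without the 2 most distant arrays -0.89 and 0.64. The part of this axis in the relations above was not tested. No BMP gene had an adjusted p below 0.05 with the median Cy5 signal or with the number of spots well above background of an array.

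**Figure D4:**
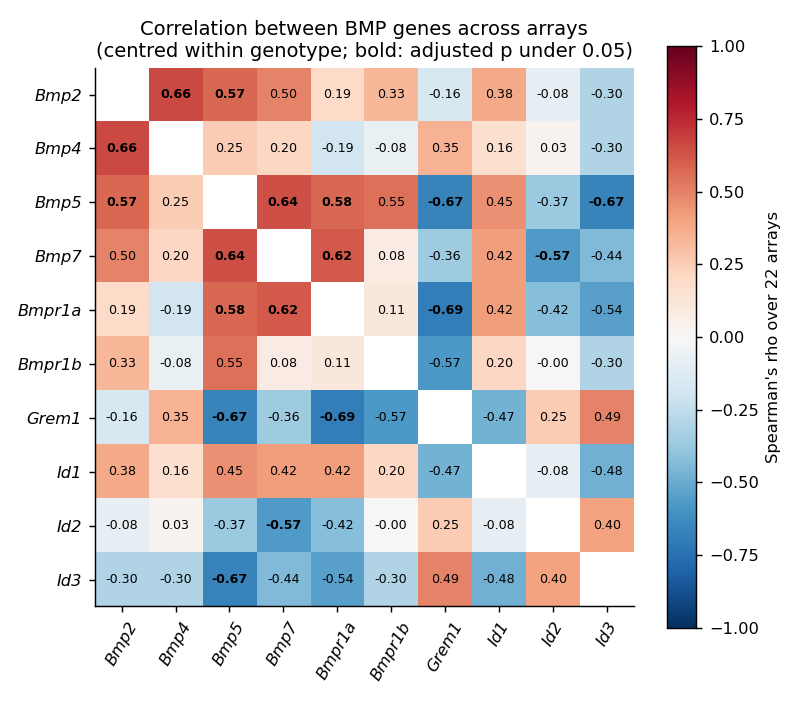
Spearman's rho between the BMP genes, each by the probe used, over the 22 arrays after centring within genotype. The scale runs from -1 (blue) to 1 (red), with adjusted p below 0.05 in bold. The 9 bold pairs include Bmp2 with Bmp4 at 0.66 and Bmpr1a with Grem1 at -0.69.

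The named genes whose values ran closest to each BMP gene were found among 16158 named genes by Spearman's rho over the same 22 centred arrays. They are given as a description with no test, since each was picked as the closest of many. Bmp2 ran closest to Ebf1 (rho 0.92), a transcription factor gene, and to Wnt5a (rho 0.89), a limb Wnt ligand, with 0.91 and 0.88 without wild-type 1. Bmp4 ran closest to Chst2 (rho 0.94) and Fbxw5 (rho 0.93). For Bmp5 these were Nrarp (rho 0.91), a Notch target, and Sort1 (rho 0.89), and for Bmp7 they were Erg (rho 0.91), an endothelial and cartilage transcription factor gene, and Spsb4 (rho 0.89). The receptor Bmpr1a had the closest neighbours of all, Dars (rho 0.97) and Tbc1d23 (rho 0.96), and Bmpr1b had Ror1 (rho 0.88) and Tshz2 (rho 0.87). Grem1 ran closest to Ppargc1b (rho 0.91) and Mvp (rho 0.89). The targets had Plk2 (rho 0.83) and Dusp6 (rho 0.80), a feedback inhibitor of the FGF pathway, for Id1, Kat7 (rho 0.82) and Pgk1 (rho 0.81) for Id2, and Retsat (rho 0.92) and D130020L05Rik (rho 0.90) for Id3. No BMP gene was among the 2 closest of another.

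The rest of the pathway was read from a list of 46 other genes, of which 45 were on the array and 43 were tested. With limma, 0 of 43 had an adjusted p below 0.05, against the same 0.0215% of all features, and 5 had an unadjusted p below 0.05, 4 above 0 and 1 below, where 5.33% of all features did, 259 above 0 and 735 below. Without wild-type 1, 8 of the 43 had an unadjusted p below 0.05, against 1018 of all 18633. Of the 43 differences 28 were above 0 and 15 below, with a median of 0.05, while over all features 8695 were above 0 and 9938 below. Without wild-type 1 the counts were 24 and 19 with a median of 0.01, against 8128 and 10505 over all features. Within position 2 they were 13 and 30 with a median of -0.04. There, 7853 of all features were above 0 and 10773 below, with a median of -0.02. By role, the counts above and below 0 within position 2 were 2 and 6 for ligands, 3 and 6 for receptors and coreceptors, 5 and 7 for antagonists, 2 and 5 for intracellular genes and 1 and 6 for targets. Bmp10, Smad9 and Dlx6 were not tested.

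The other ligands split evenly, 4 above and 4 below 0, all 8 with an unadjusted p above 0.05. Bmp8b, with a difference of -0.14 (limma adjusted p = 0.932), and Gdf7, with 0.06 (limma adjusted p = 0.933), had the smallest p-values among them. Without wild-type 1 these differences were -0.04 and 0.03, and within position 2 they were -0.03 and -0.0048. Of the 9 receptors and coreceptors, 6 were above and 3 below 0. Acvr2b, a type II receptor, differed by 0.26 (95% interval -0.14 to 0.67) and by 0.13 without wild-type 6, and Tgfbr3, the coreceptor betaglycan, by -0.12 (95% interval -0.34 to 0.09) and by -0.08 without wild-type 1.

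The antagonists held 4 of the 5 unadjusted p-values below 0.05. Fst, encoding follistatin, which binds activins and some BMPs, had wild-type ratios from 0.21 through 0.56 to 1.10 and knockout ratios from -0.17 through 0.17 to 0.96. In knockout, 12 of 13 values were below the median of wild type, but the ranges overlapped. The difference was -0.39 (SE 0.11, 95% interval -0.63 to -0.16, unadjusted limma p = 0.00229, adjusted p = 0.910), below 0 on 6 of 6 slides, -0.40 without wild-type 1 and -0.20 within position 2. Chrdl1, encoding a chordin-like antagonist, had wild-type ratios from 1.23 through 2.21 to 2.54 and knockout ratios from 2.02 through 2.54 to 2.80. Here 11 of 13 knockout arrays lay above the wild-type median. The difference was 0.39 (SE 0.13, 95% interval 0.13 to 0.65, unadjusted limma p = 0.00519, adjusted p = 0.910), above 0 on 6 of 6 slides, 0.28 without wild-type 1, 0.23 within position 2 and 0.11 at another probe of the gene.

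Chrdl2 and Bmper fall outside the rule for named genes and were chosen after their values were seen. Chrdl2, a relative of Chrdl1, differed by 0.50 (95% interval 0.15 to 0.85, unadjusted limma p = 0.00698, adjusted p = 0.910), with wild-type 1 at 0.80 as the lowest array, and by 0.35 without it and 0.07 within position 2. Bmper, an extracellular BMP modulator, differed by 0.14 (unadjusted limma p = 0.0220, adjusted p = 0.917), by 0.13 without wild-type 1 and by -0.06 within position 2. Neither passed the adjusted test.

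Inside the cell, 6 of the 7 tested genes were above 0 over all arrays, 6 of 7 without wild-type 1 and 2 of 7 within position 2. Of all features, 8695 were above 0 and 9938 below over all arrays, and 7853 and 10773 within position 2. Smad4, the shared partner of the receptor-activated Smads, differed by 0.11 (95% interval 0.01 to 0.22, unadjusted limma p = 0.0381, adjusted p = 0.917), and by -0.01 at another probe. Smad7, an inhibitory Smad, differed by 0.21 (95% interval -0.01 to 0.43, limma adjusted p = 0.917) over all arrays and by -0.04 within position 2. Of the other targets 4 were above and 3 below 0. Id4, the remaining Id gene, differed by -0.24 (95% interval -0.55 to 0.07, limma adjusted p = 0.924), by -0.36 without wild-type 1 and by -0.14 without wild-type 6, a sign opposite to that of the used probes of Id1, Id2 and Id3. Msx2, a homeobox target in mesenchyme and ectoderm, differed by 0.30 (95% interval -0.10 to 0.70, limma adjusted p = 0.924) by 0.12 without wild-type 1 and by 0.04 within position 2.

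**Figure D5:**
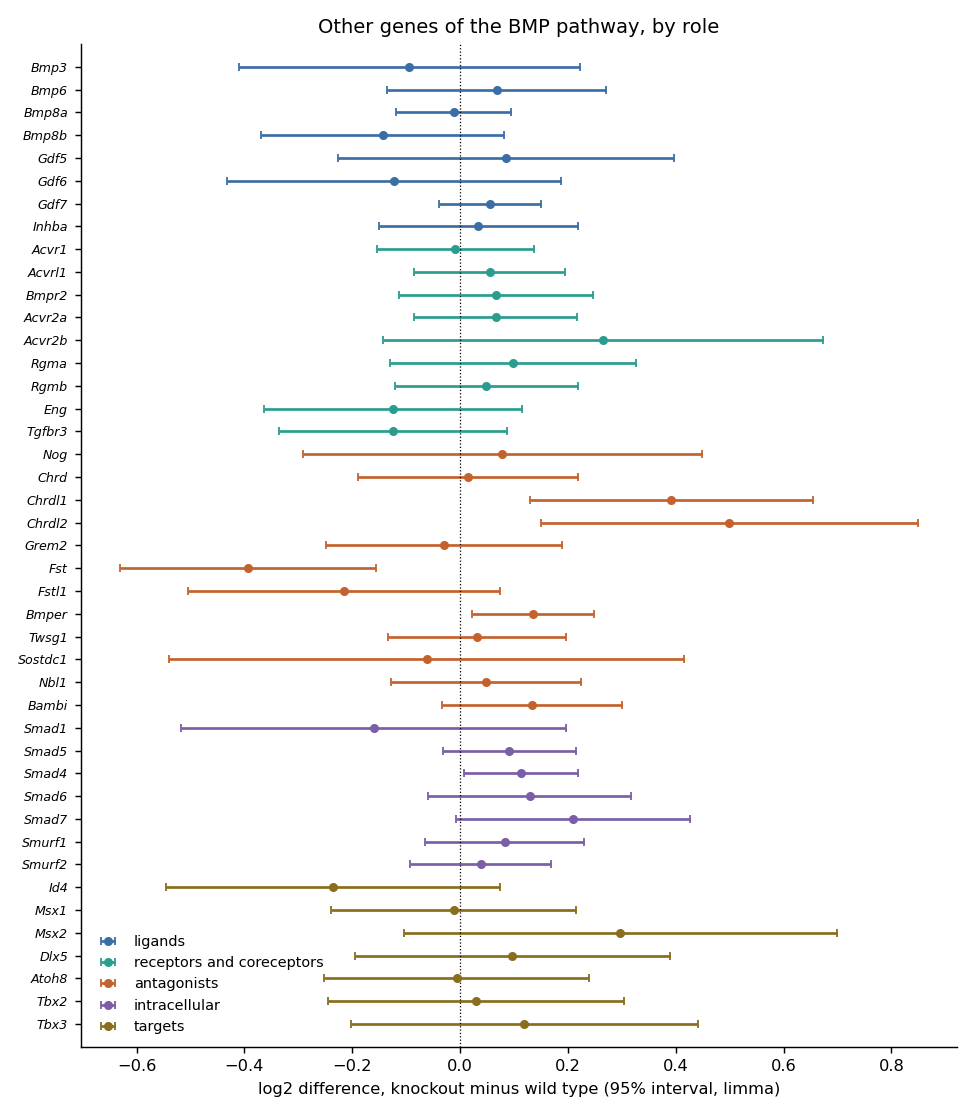
The log2 difference, knockout minus wild type, with its 95% interval from limma, for the 43 tested genes of the pathway list, coloured by role. The intervals of Fst below 0 and of Chrdl1, Chrdl2, Bmper and Smad4 above 0 do not reach 0, and no gene of the list passed the test after adjustment over all 18633 features.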

How the data were processed

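Expression was measured on 22 two-colour arrays, 9 wild type and 13 knockout, grouped by the sample titles. The scanner software was Agilent Feature Extraction (9.5 in the submitters' processing notes, 9.5.3.1 in the file headers). Spot and background values are deposited as raw intensities, per the file headers, and each spot's ratio as a log10 of Cy5 over Cy3. Flags deposited as 0 or 1 mark outlier spots, saturated spots and spots well above background. The deposited value table held the same log10 ratios, with a largest difference of 0. Median Cy5 intensity lay between 102.8 and 178.9 units against a background of 54 to 57, and the number of arrays limits the precision.

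Mean intensities were corrected with normexp (offset 50) and normalised by loess within arrays, with spots of 1 probe averaged. Of the 41174 probes, those with Cy5 well above background on at least 9 arrays were tested, and each gene took its probe of highest mean intensity. Names were updated through RefSeq on GRCm38.p6 (23374 probes by their own identifier, 103 by another, 6669 by a current and 2880 by an older symbol), 1828 kept the design's name and 6320 had none. The limma package (3.58.1, R 4.3.3) gave the differences, without covariates and with p-values adjusted by Benjamini-Hochberg over 18633 features at 0.05. The fit was tested on simulated data. Paired probes were compared by exact permutation over arrays, and correlations by permutation within genotype.

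The BMP genes and the lists were chosen with earlier results of these data known. Named genes were the 10 BMP genes, Chsy1, any pathway gene past the threshold (there was none), the 2 pathway genes of each role with the smallest p, and the 2 named genes closest to each BMP gene. Alternatives covered background correction, normalisation, the Cy5 channel alone, the probe filter and rule, slide, position or replicate number as a block, weights for arrays, another variance model and the omission of arrays. Another 3 settings that combine such choices were added after seeing the data.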

Additional observations from a re-analysis of the deposited data

Results flagged for a closer look

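Among the 23 genes examined for an array far from its group, 5 were marked, each in the wild-type group and each at wild-type 1, the lowest of the 9. About 1 group in 20 is marked so by chance, and the 5 share this array, so they are not separate events. The log2 ratio of Bmp2 was 0.74 in wild-type 1, against 2.05 in the next wild-type array. For Bmp7 it was 1.44 against 1.85, and for Bmpr1b 0.69 against 1.66. For Chrdl2 it was 0.80 against 1.71, and for Msx2 2.04 against 3.37. Without this array the differences between genotypes were -0.14 for Bmp2, -0.14 for Bmp7, 0.04 for Bmpr1b, 0.35 for Chrdl2 and 0.12 for Msx2. No knockout array was marked, but this does not mean that none stood apart. The Chsy1 ratio was 0.15 in knockout 1, against -4.05 in the next knockout array. That of Bmp2 was 1.13 in knockout 12, against 2.05 in the next.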

How the results depend on the processing

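No BMP gene and no other pathway gene was called in any of the settings run, including each omission of 1 array, while the count over all genes was 4 with the settings used here, from 2 to 6 when 1 array was left out, 7 with array weights, 6 without background correction, 3 with Cy5 alone, 2 with offset 0 or without wild-type 1 and knockout 1, 1 with the scanner's ratio, median centring or a block for slide or position, and 0 within position 2. The sign of Id2, Id3, Bmp4 and Bmpr1b held in every setting apart from single slides (Id3 was 0.0058 without wild-type 6), with Id2 from 0.06 (mean of probes) to 0.28 (median centring). The Chsy1 difference was -4.66 within position 2, no longer past the threshold with 3 arrays per genotype and knockout 1 among them, and lay between -6.49 and -6.05 when 1 array was left out.

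Signs reversed as follows, and the cause was not tested. Bmp2 was -0.011 without background correction, -0.013 with the scanner's ratio, -0.057 with Cy5 alone, -0.059 with array weights, -0.14 without wild-type 1, alone or with knockout 1 (omissions of 1 array gave -0.14 to 0.17), and, without wild-type 1, -0.11 with Cy5 alone and -0.065 with the scanner's ratio. With median centring, where all genes shifted by a median of 0.24 and values are given relative to it, Bmp2 was -0.015, Bmp5 -0.031, Bmp7 0.0040 and Gdf7 -0.18. With position as a block and within position 2, which give the same estimates, Bmp2 was -0.28, Bmp5 -0.027, Bmpr1a -0.021, Grem1 0.081, Id1 -0.080, Gdf7 -0.0048, Bmper -0.058 and Smad7 -0.038. Within position 2 without knockout 1, Bmp2 was -0.26, Bmp5 -0.089, Grem1 0.021, Id1 -0.044, Gdf7 -0.034 and Smad7 -0.0071. With the scanner's ratio Gdf7 was -0.11 and Msx2 -0.040, and without wild-type 1 Gdf7 was -0.049 and Msx2 -0.0069.

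Wild-type and knockout samples share replicate numbers 1 to 9, but the labels tie no pair. Same-numbered arrays correlated between -0.31 and 0.49, and 1 of 9 wild-type arrays correlated best with its own number. With the replicate number as a block, 0 BMP genes and 0 pathway genes were called, Chsy1 differed by -5.90, Id2 by 0.10 and Bmp2 by 0.12, and 1 gene was called over all genes.

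Cy3 signal near background limits the ratios of Bmp2, Bmp5 and Bmpr1b, which rest on Cy5. Genotype and slide position can be told apart only through the 6 arrays of position 2.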
